A study of Mus musculus with 14 samples.

Results

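Klhl4, Kcnc2, Itm2a, Il7r, Adamtsl1, Pi15 and Angptl7 are 7 genes with large decreases in mouse 3T3-L1 preadipocytes depleted of TP53INP2. They were chosen by their difference at day 0 of differentiation, knockdown against control, so their day 0 values are given as a description and were not tested. The arrays carry 13 probe sets that name 1 of these genes and no other, of 45037 probe sets, and the 7 genes are among 18193 genes with such a probe set. The rule that chose the genes states no threshold. Ranked by the day 0 decrease of the brightest probe set, they hold places 2, 3, 4, 5, 7, 9 and 11. Between members lie 3110039M20Rik at place 6, Itga8 at place 8 and AW551984 at place 10, which differed by -3.54, -3.24 and -3.10 on the log2 scale. The last member, Il7r, differed by -3.08, and the next gene, Crabp1, differed by -3.04.

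3T3-L1 is an established line of mouse embryonic fibroblasts committed to the fat lineage, which fills with lipid after hormonal induction. The study transduced these preadipocytes with lentivirus carrying either an siRNA sequence against TP53INP2 (knockdown, KD) or a scrambled sequence (control). RNA was taken from post-confluent cells not yet induced (day 0; 3 KD and 3 control arrays) and after induction in differentiation medium (day 7; 4 KD and 4 control arrays). All groups share the cell line and the viral transduction, and every array measured bulk RNA, so fewer cells that express a gene and less RNA per cell cannot be told apart. Any fixed difference between the 2 transduced populations cannot be told apart from the knockdown. The labels do not say whether replicates are separate cultures, so p-values measure only how far these samples spread, and that spread may be technical. All values are log2 expression values as the authors deposited them. A difference of -1 on this scale is a level of 50% of control, and each percentage of control below is that difference turned back to the linear scale.

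TP53INP2 is a small protein that shuttles between nucleus and cytoplasm, takes part in the formation of autophagosomes and acts as a coactivator of thyroid hormone receptor. Preadipocytes are mesenchymal cells that, besides making fat, secrete matrix and signalling proteins, many of which decline as fat cells mature. The 7 genes have no single pathway in common. Pi15, Angptl7 and Adamtsl1 encode secreted proteins. Il7r, Itm2a and Kcnc2 encode membrane proteins, and Klhl4 encodes an intracellular kelch-repeat protein. Most of them are known from cells other than preadipocytes: lymphocytes for Il7r, neurons for Kcnc2, cartilage, muscle and T cells for Itm2a, and tissues of the eye for Angptl7.

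By its brightest probe set, the targeted gene followed the labels. Trp53inp2 read 11.06, 11.14 and 11.66 in KD cells at day 0, against 12.45, 12.53 and 12.38 in control cells, and 10.20, 10.06, 10.01 and 10.45 in KD cells at day 7, against 11.74, 11.77, 11.78 and 11.70 in control cells. At day 0 the KD level was 44.4% of control, a difference of -1.17 that was not tested. At day 7 it was 33.7% of control (limma adjusted p = 0.00437 over all probe sets). A second, dimmer probe set of the gene was not lower in KD cells on either day. It differed by 0.20 at day 0, which was not tested, and by 0.24 ± 0.23 at day 7 (SE; limma adjusted p = 0.647). Some arrays lay unusually close together. Closeness was measured as the SD of the difference between 2 arrays, over probe sets brighter than the median. Replicates 1 and 2 of the day 7 groups gave 0.202 in KD cells and 0.123 in control cells. The other replicate pairs of these groups gave 0.338 to 0.521 in KD cells and 0.418 to 0.506 in control cells. Replicates 1 and 2 were also the closest pair at day 0. They gave 0.242 in KD cells, against 0.427 and 0.443 for the other pairs, and 0.291 in control cells, against 0.342 and 0.385. The day 0 means and SDs below count them as separate samples. Each day 7 test, here and below, rests on replicates 1 and 2 counting as separate samples. For each call the result without that assumption is given too. With replicates 1 and 2 of each group averaged into 1, Trp53inp2 differed by -1.55 at day 7 and did not pass (limma adjusted p = 0.156). It passed in all 8 fits that left out 1 array. The beta-actin 3' minus 5' difference, a measure of how evenly a transcript is covered along its length, was 2.74 to 3.23 in KD cells at day 0, against 3.32 to 3.76 in control cells, and 2.70 to 3.37 in KD cells at day 7, against 2.82 to 3.48 in control cells. The same difference for Gapdh was 1.59 to 1.90 in KD cells at day 0, against 2.02 to 2.43 in control cells. At day 7 it was 1.35 to 1.70 in KD cells, against 1.24 to 1.79 in control cells. For both transcripts the lower day 0 values in KD cells do not overlap the control values, and their part in the day 0 differences was not tested.

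The promoters of 5 of the 7 genes were at hand. They are shown because these genes were low in the same cells, and a reader may wish to compare their starts. Each window runs from 250 bases before to 50 bases after the annotated start, 5′ to 3′ on the gene's own strand, from RefSeq on build GRCm38.p6, and capitals mark matches to the motifs named after them. The windows lie at chrX:114474083-114474382 (plus strand) for Klhl4, chr10:112269767-112270066 (plus strand, the first of 4 windows listed) for Kcnc2, chrX:107403311-107403610 (minus strand) for Itm2a, chr15:9529827-9530126 (minus strand) for Il7r and chr4:148500413-148500712 (minus strand) for Angptl7.
Klhl4: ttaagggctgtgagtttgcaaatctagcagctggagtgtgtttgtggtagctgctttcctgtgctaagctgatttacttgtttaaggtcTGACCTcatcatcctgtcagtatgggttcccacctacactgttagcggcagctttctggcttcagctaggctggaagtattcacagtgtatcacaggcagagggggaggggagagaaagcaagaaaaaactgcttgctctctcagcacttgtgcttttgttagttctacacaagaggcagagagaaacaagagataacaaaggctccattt
Kcnc2: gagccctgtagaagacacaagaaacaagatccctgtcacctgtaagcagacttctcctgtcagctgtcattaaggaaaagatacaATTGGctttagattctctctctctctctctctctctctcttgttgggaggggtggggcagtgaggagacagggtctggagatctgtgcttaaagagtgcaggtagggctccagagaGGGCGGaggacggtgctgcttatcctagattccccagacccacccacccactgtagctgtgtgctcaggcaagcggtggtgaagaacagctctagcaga
Itm2a: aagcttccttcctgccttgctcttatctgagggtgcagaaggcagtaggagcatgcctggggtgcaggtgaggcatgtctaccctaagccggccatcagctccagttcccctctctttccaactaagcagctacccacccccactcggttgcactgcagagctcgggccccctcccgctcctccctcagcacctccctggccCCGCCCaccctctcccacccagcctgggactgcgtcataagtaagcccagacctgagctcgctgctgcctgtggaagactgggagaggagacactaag
Il7r: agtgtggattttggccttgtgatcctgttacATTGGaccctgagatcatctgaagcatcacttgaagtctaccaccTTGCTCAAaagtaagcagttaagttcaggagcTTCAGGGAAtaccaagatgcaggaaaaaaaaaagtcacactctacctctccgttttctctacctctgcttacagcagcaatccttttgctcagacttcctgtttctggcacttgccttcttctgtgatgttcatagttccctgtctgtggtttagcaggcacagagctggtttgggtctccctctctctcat
Angptl7: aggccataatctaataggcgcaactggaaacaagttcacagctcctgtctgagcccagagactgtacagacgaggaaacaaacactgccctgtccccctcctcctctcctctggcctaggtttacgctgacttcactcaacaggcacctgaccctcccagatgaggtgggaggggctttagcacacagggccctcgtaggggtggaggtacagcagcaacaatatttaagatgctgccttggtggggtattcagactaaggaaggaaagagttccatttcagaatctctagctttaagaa
A search of both strands for 10 short motifs, each spelled out here, found none that all 5 genes had in these windows, and no match overlapped another. Of the motifs, CCAAT was in the windows of Kcnc2 (165 bases before the start) and Il7r (219 bases before the start), and 37.4% of all 32851 mouse windows in the table have it. GGGCGG was in the windows of Kcnc2 (49 bases before the start) and Itm2a (48 bases before the start), and 35.7% of all windows have it. Klhl4 had AGGTCA, read as TGACCT 161 bases before the start, which 16.3% of all windows have. Il7r also had TTCNNNGAA 142 bases and TTGCNNAA 174 bases before the start, found in 8.30% and 10.8% of all windows. TATAAA, found in 13.6% of all windows, CACGTG (7.15%), TAATTA (5.29%), GGAATG (14.7%) and TGANTCA (7.81%) were in none of the 5 windows, and the Angptl7 window had none of the 10 motifs. The GC content of the windows was 46.3% for Klhl4, 52.7% for Kcnc2, 62% for Itm2a, 45.7% for Il7r and 51.3% for Angptl7, beside a median of 52.7% over all windows. A match is a stretch of letters and not a known binding site.

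The brightest probe sets were 1439078_at for Klhl4, 1455258_at for Kcnc2, 1423608_at for Itm2a, 1448575_at for Il7r, 1442063_at for Adamtsl1, 1446791_at for Pi15 and 1451478_at for Angptl7. At day 0 every KD array read below every control array in each of them. Over all 13 probe sets this was so for 12, beside 12.3% of all probe sets on the arrays, and since the genes were selected on this contrast the share carries no further weight. The median difference of the 7 brightest probe sets was -4.10, beside -0.019 over all probe sets. All 21 same-numbered pairs of these probe sets were therefore lower in KD cells, which adds nothing to the lack of overlap.

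Il7r encodes the alpha chain of the interleukin-7 receptor, which pairs with the common gamma chain, and with Crlf2 forms the receptor for TSLP. Both receptors signal through JAK kinases and STAT proteins, and the gene is best known for its need in lymphocyte development. It read 3.54, 2.22 and 2.85 in KD cells at day 0, against 6.90, 5.15 and 5.80 in control cells. The mean was 2.87 ± 0.66 in KD cells and 5.95 ± 0.88 in control cells (SD, n = 3 each), a difference of -3.08, or 11.8% of control. Control replicate 1 was the highest of the control arrays, and the highest KD array still lay below the lowest control array.

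Kcnc2 encodes a subunit of Kv3-class voltage-gated potassium channels, known from neurons that fire at high rates. It read 3.70, 2.78 and 3.53 in KD cells at day 0, against 7.97, 7.74 and 7.49 in control cells. With means of 3.34 ± 0.49 in KD cells and 7.73 ± 0.24 in control cells (SD, n = 3 each), its difference of -4.40, or 4.75% of control, was the largest of the 7. The KD arrays spread more than the control arrays and stayed far below them.

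Itm2a encodes a type II membrane protein with a BRICHOS domain, found in developing cartilage, muscle precursors and T cells, and reported in 3T3-L1 cells to restrain fat cell formation. Its brightest probe set read 3.01, 2.70 and 3.55 in KD cells at day 0, against 6.88, 7.43 and 7.26 in control cells. The means were 3.09 ± 0.43 in KD cells and 7.19 ± 0.28 in control cells (SD, n = 3 each), a difference of -4.10, or 5.83% of control. The 2 groups were far apart and each was tight.

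Klhl4 belongs to the BTB and kelch-repeat proteins, many of which bring substrates to ubiquitin ligases built on cullin 3. It read 3.33, 2.71 and 3.22 in KD cells at day 0, against 7.23, 7.27 and 7.33 in control cells. The means were 3.08 ± 0.33 in KD cells and 7.28 ± 0.05 in control cells (SD, n = 3 each), a difference of -4.19, or 5.47% of control. The control arrays were the tightest of any member at day 0.

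Adamtsl1, also called punctin, is a secreted matrix glycoprotein related to the ADAMTS proteases that lacks their protease domain. Its brightest probe set read 3.10, 2.97 and 3.67 in KD cells at day 0, against 8.41, 6.65 and 7.31 in control cells. The means were 3.24 ± 0.37 in KD cells and 7.46 ± 0.89 in control cells (SD, n = 3 each), a difference of -4.21, or 5.39% of control. The control arrays were spread, with replicate 1 highest.

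Pi15 encodes a secreted protein of the CAP superfamily, whose human form was described as a trypsin inhibitor. Its brightest probe set read 6.17, 5.82 and 5.34 in KD cells at day 0, against 8.89, 9.08 and 8.97 in control cells. The means were 5.78 ± 0.42 in KD cells and 8.98 ± 0.10 in control cells (SD, n = 3 each), a difference of -3.20, or 10.9% of control. Angptl7 encodes a secreted angiopoietin-like protein with a fibrinogen-like domain, known in human eyes from the trabecular meshwork and cornea. It read 5.86, 6.39 and 6.27 in KD cells at day 0, against 9.20, 9.07 and 10.13 in control cells. Its means were 6.18 ± 0.28 in KD cells and 9.47 ± 0.58 in control cells (SD, n = 3 each), a difference of -3.29, or 10.2% of control. Pi15 and Angptl7 were the only members whose KD arrays at day 0 stayed near the middle of the array's range of values. The day 0 KD arrays of the other 5 genes lay within the lowest 29.9% of all values on their array, where RMA values understate a change.

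**Figure D1:**
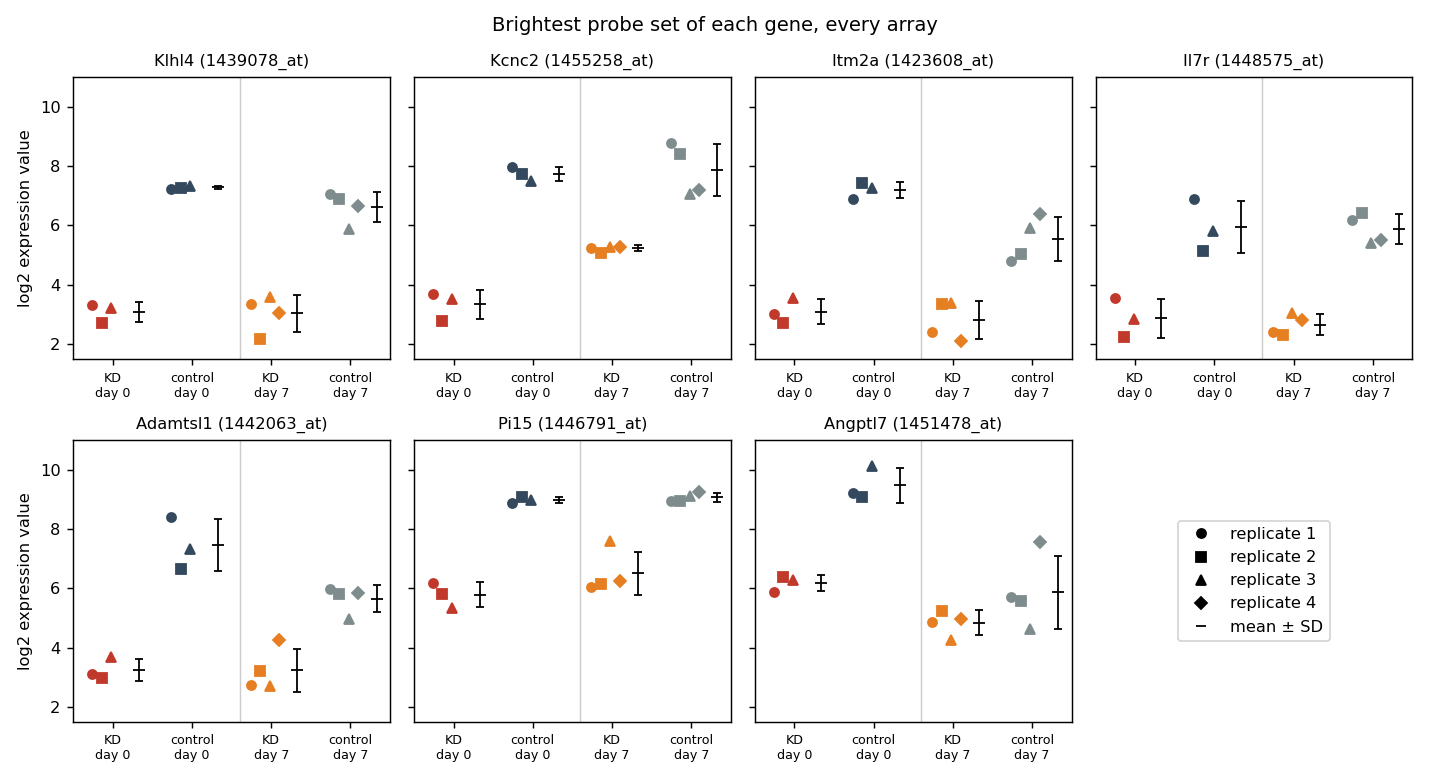
Log2 expression value (vertical axis) of the brightest probe set of each of the 7 genes on each of the 14 arrays, with KD left of control at day 0 and at day 7; points are arrays and bars the mean ± SD. KD and control arrays overlap in 1 of these 14 comparisons, Angptl7 at day 7.

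The rule that chose the genes names day 0 values only. Earlier results of these data were known at that choice, so the day 7 arrays may not be fully independent of it. At day 7 the test was run on the 8 day 7 arrays alone. In that fit 7 of the 13 member probe sets were lower in KD cells at an adjusted p under 0.05, beside 0.533% of all probe sets. By brightest probe set, Klhl4, Kcnc2, Itm2a, Il7r, Adamtsl1 and Pi15 fell and Angptl7 did not pass, which is 6 of 7 genes, beside 0.792% of all genes called lower. Of the 13 probe sets, 8 had every KD array below every control array, beside 5.51% of all probe sets. All 28 same-numbered pairs of the brightest probe sets were lower in KD cells. The share of all probe sets with every pair lower was not computed. Since the 7 genes share the same arrays, this count carries no weight of its own. The median difference of the 7 was -2.64, beside -0.006 over all probe sets.

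Klhl4 had the largest decrease of all 18193 genes at day 7. It read 3.36, 2.17, 3.60 and 3.04 in KD cells at day 7, against 7.04, 6.89, 5.89 and 6.66 in control cells. The groups stayed clearly apart, with control replicate 3 the lowest control array. The difference was -3.58 ± 0.35 (SE; 95% interval -4.37 to -2.79; adjusted p = 0.0126), which is 8.37% of control (4.85% to 14.5%).

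Il7r had the next-largest decrease among the members and the smallest adjusted p. It read 2.42, 2.31, 3.05 and 2.82 in KD cells at day 7, against 6.17, 6.42, 5.39 and 5.52 in control cells. Control replicates 1 and 2 were the highest, and no array of one group came near the other group. The difference was -3.22 ± 0.26 (SE; 95% interval -3.82 to -2.62; adjusted p = 0.00665), which is 10.7% of control (7.06% to 16.3%).

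Itm2a read 2.41, 3.35, 3.37 and 2.11 in KD cells at day 7, against 4.81, 5.05, 5.90 and 6.39 in control cells. Its difference was -2.73 ± 0.42 (SE; 95% interval -3.68 to -1.78; adjusted p = 0.0332), or 15.1% of control (7.81% to 29.1%). Both groups were spread over more than at day 0, and they did not overlap. Kcnc2 read 5.25, 5.07, 5.28 and 5.26 in KD cells at day 7, against 8.79, 8.41, 7.07 and 7.18 in control cells. The KD arrays were the tightest of any member at day 7, while control replicates 1 and 2 stood above replicates 3 and 4. The difference was -2.64 ± 0.37 (SE; 95% interval -3.49 to -1.80; adjusted p = 0.026), or 16.0% of control (8.89% to 28.8%).

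Pi15, the CAP protein, read 6.05, 6.14, 7.58 and 6.23 in KD cells at day 7, against 8.95, 8.94, 9.11 and 9.26 in control cells. KD replicate 3 stood above the other KD arrays and still lay below every control array. The difference was -2.56 ± 0.32 (SE; 95% interval -3.29 to -1.84; adjusted p = 0.0175), or 16.9% of control (10.2% to 28.0%). Adamtsl1, the matrix protein, read 2.73, 3.21, 2.72 and 4.25 in KD cells at day 7, against 5.97, 5.79, 4.98 and 5.83 in control cells. KD replicate 4 and control replicate 3 came nearest each other without crossing. The difference was -2.42 ± 0.36 (SE; 95% interval -3.24 to -1.59; adjusted p = 0.0312), or 18.7% of control (10.6% to 33.2%).

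Angptl7 was the exception. It read 4.87, 5.25, 4.26 and 4.96 in KD cells at day 7, against 5.71, 5.57, 4.64 and 7.56 in control cells. Control replicate 3 lay inside the KD range and control replicate 4 stood far above the other control arrays. The difference of -1.03 ± 0.55 (SE; 95% interval -2.28 to 0.22; adjusted p = 0.367) is 48.9% of control, with an interval of 20.6% to 116%.

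These day 7 calls rest on few arrays. With replicates 1 and 2 of each group averaged into 1, no probe set on the arrays passed, although 4958 probe sets, among them 6 of the 7 brightest member probe sets, had an unadjusted p under 0.05, and the member differences were -3.37 for Klhl4, -2.99 for Il7r, -2.96 for Itm2a, -2.47 for Pi15, -2.38 for Kcnc2 and -2.25 for Adamtsl1 (adjusted p between 0.156 and 0.294). Il7r passed in all 8 fits that left out 1 array. Without KD replicate 1, control replicate 1 or control replicate 2, it was the only member gene that passed. Without KD replicate 2, Klhl4 and Il7r passed, and without KD replicate 4, Klhl4, Il7r and Adamtsl1 passed. Without control replicate 4, Klhl4, Kcnc2, Il7r and Pi15 passed, and without control replicate 3, all but Itm2a and Angptl7. Leaving out KD replicate 3 kept all 6 calls. No such fit changed a direction, and the differences stayed between -3.82 and -2.25 for these 6 genes, with adjusted p between 0.000651 and 0.12. Angptl7 ranged from -1.44 to -0.47, and the value of -0.47 was without control replicate 4.

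**Figure D2:**
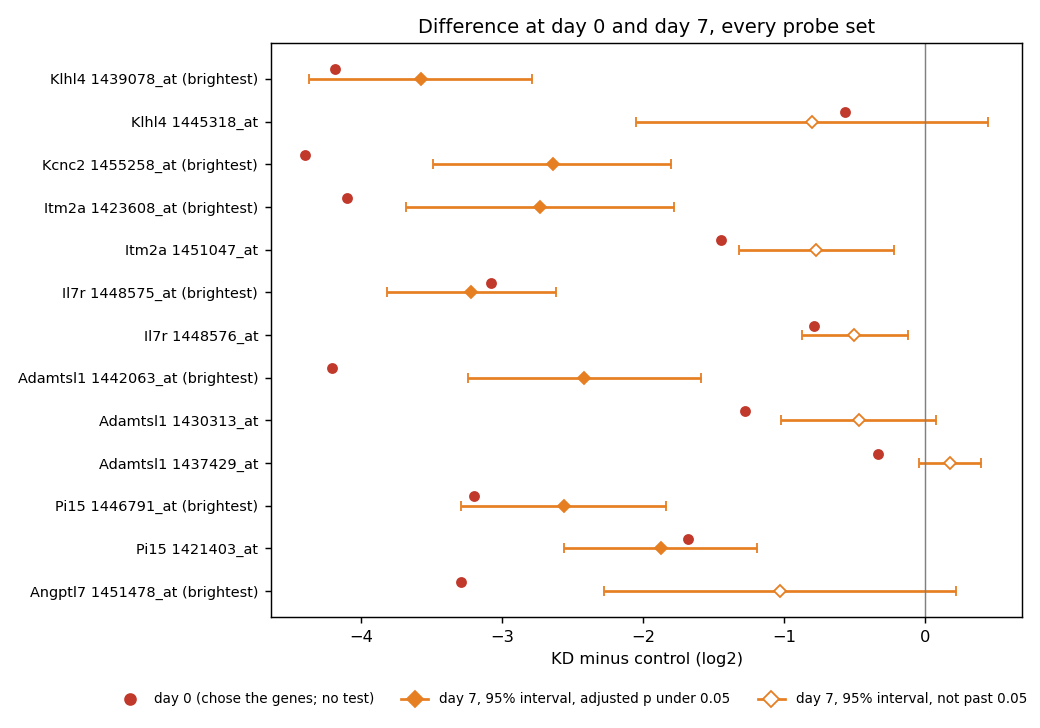
KD minus control difference in log2 expression value (horizontal axis) of all 13 probe sets of the 7 genes; circles are day 0, which chose the genes and has no interval, and diamonds are day 7 with the 95% interval of the limma fit, filled where the adjusted p is under 0.05. The 7 filled diamonds are the brightest probe sets of 6 genes and the second Pi15 probe set, and the Angptl7 interval crosses 0.

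How much of the day 0 difference was still there at day 7 varied between the genes. The values that follow share the day 0 arrays that chose the members and were not tested. For Il7r the day 7 difference was 105% of the day 0 difference, for Klhl4 85.3%, for Pi15 80.0%, for Itm2a 66.6%, for Kcnc2 60.1%, for Adamtsl1 57.3% and for Angptl7 31.3%, as shares of log2 differences. The steps behind these shares were of different kinds. In Il7r both groups moved little between the days, with changes of -0.22 in KD cells and -0.08 in control cells, day 7 minus day 0.

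In Angptl7, Adamtsl1, Itm2a and, by less, Klhl4 the control level came down toward the KD level. Angptl7 changed by -1.34 in KD cells and by -3.60 in control cells, day 7 minus day 0, so its control mean at day 7, 5.87 ± 1.23 (SD, n = 4), was below its KD mean at day 0, 6.18 ± 0.28 (SD, n = 3). Adamtsl1 changed by -0.01 in KD cells and by -1.81 in control cells. Itm2a changed by -0.28 in KD cells and by -1.65 in control cells. Klhl4 changed by -0.04 in KD cells and by -0.66 in control cells. The KD values of Adamtsl1, Itm2a and Klhl4, and also those of Il7r, lay near the bottom of the scale on both days, which leaves little room for a further decrease.

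In Kcnc2 and the brightest Pi15 probe set the KD level came up instead. Kcnc2 changed by 1.88 in KD cells and by 0.13 in control cells, day 7 minus day 0, and its 4 KD arrays at day 7 all lay above its 3 KD arrays at day 0. Pi15 changed by 0.72 in KD cells and by 0.08 in control cells, and without KD replicate 3, its highest day 7 KD array, the day 7 difference was -2.92 in place of -2.56. Control means of these 2 probe sets were nearly the same on the 2 days. The Kcnc2 control arrays spread more widely at day 7, from 7.07 to 8.79, against 7.49 to 7.97 at day 0. The second Pi15 probe set did not share this pattern: it changed by 0.82 in KD cells and by 1.01 in control cells, and its day 7 difference was 112% of its day 0 difference.

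Of the 7 genes, 5 have further probe sets, 6 in all, most of them dim in every group. Pi15 had the one that passed. Its second probe set (1421403_at) read 3.48, 4.32 and 3.60 in KD cells at day 0, against 5.54, 5.80 and 5.09 in control cells, and 4.42, 4.07, 5.58 and 4.40 in KD cells at day 7, against 6.48, 6.56, 6.72 and 6.19 in control cells. KD replicate 3 was again the highest KD array at day 7 and again below every control array. The differences were -1.68 at day 0 and -1.87 ± 0.30 at day 7 (SE; adjusted p = 0.0373), or 27.3% of control at day 7. This call was lost with replicates 1 and 2 averaged (adjusted p = 0.313), and of the 8 fits that left out 1 array it passed only in the fit without KD replicate 3 (adjusted p = 0.00607, against 0.0782 to 0.135 in the others).

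The second Itm2a probe set (1451047_at) read 3.25, 2.87 and 3.03 in KD cells at day 0, against 3.82, 4.81 and 4.85 in control cells, and 3.10, 3.20, 3.07 and 2.81 in KD cells at day 7, against 3.51, 3.51, 3.64 and 4.59 in control cells. The groups did not overlap on either day, and the day 7 difference of -0.77 ± 0.24 (SE; adjusted p = 0.154) did not pass. The second Il7r probe set (1448576_at) read 2.13, 1.99 and 2.22 in KD cells at day 0, against 2.75, 3.02 and 2.95 in control cells. At day 7 it read 1.96, 1.96, 1.75 and 2.56 in KD cells, against 2.57, 2.62, 2.50 and 2.53 in control cells, where KD replicate 4 reached the control range (-0.50 ± 0.17, SE; adjusted p = 0.171). The Il7r values lay within the lowest 19.1% of all values on their array, and the Itm2a values within the lowest 44.0%.

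The second Klhl4 probe set (1445318_at) overlapped between the groups on both days. It read 2.86, 3.27 and 4.17 in KD cells at day 0, against 3.74, 3.54 and 4.74 in control cells, and 2.45, 3.08, 3.29 and 3.72 in KD cells at day 7, against 3.08, 3.04, 5.57 and 4.03 in control cells (day 7 difference -0.80 ± 0.55, SE; adjusted p = 0.499). The 2 further Adamtsl1 probe sets differed from each other. One (1430313_at) read 3.15, 2.81 and 2.94 in KD cells at day 0, against 4.02, 5.19 and 3.52 in control cells, and 3.22, 2.68, 3.33 and 2.88 in KD cells at day 7, against 3.47, 3.15, 3.22 and 4.16 in control cells (day 7 difference -0.47 ± 0.24, SE; adjusted p = 0.351). The other (1437429_at) read 3.88, 3.92 and 4.09 in KD cells at day 0, against 4.32, 4.34 and 4.21 in control cells, and 4.04, 4.25, 4.25 and 4.25 in KD cells at day 7, against 3.89, 4.08, 4.04 and 4.08 in control cells. Its small day 7 difference ran the other way (0.18 ± 0.09, SE; adjusted p = 0.365), so the Adamtsl1 result rests on the brightest of its 3 probe sets.

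**Figure D3:**
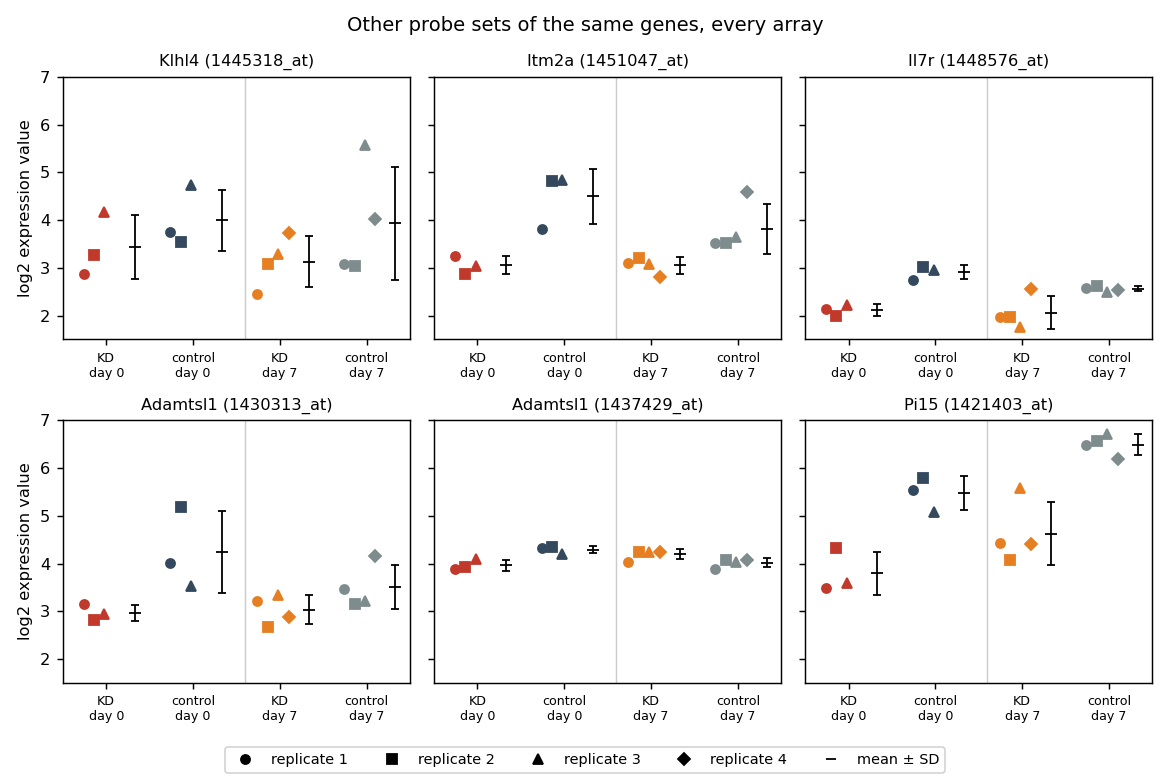
Log2 expression value (vertical axis) of the 6 further probe sets of Klhl4, Itm2a, Il7r, Adamtsl1 and Pi15 on each array, with KD left of control at each day; points are arrays and bars the mean ± SD. Apart from the Pi15 probe set, KD and control arrays overlap or nearly meet at day 7.

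Relatives and partners of the 7 genes differed less between the groups than the members did, apart from Angpt4 beside Angptl7. The members were chosen for large decreases, so this comparison carries no further weight. Relatives are given by their brightest probe sets in the same day 7 fit on all 45037 probe sets. In that fit the brightest probe sets of 0.792% of all genes were lower and of 0.412% higher in KD cells. An unadjusted p under 0.05 was common: in a day 7 limma fit on 1 probe set per gene, 3859 of 18193 genes had it. None of 35 kelch-like genes, Cul3 and partners passed (median difference -0.06, 7 with an unadjusted p under 0.05), and the largest differences were 0.64 ± 0.19 (SE) for Klhl41 (adjusted p = 0.138) and 0.42 ± 0.08 for Cul3, the cullin that kelch proteins bind (adjusted p = 0.0564). None of 25 other voltage-gated potassium channel genes passed (median -0.08, 3 with an unadjusted p under 0.05). Kcna4 differed by -0.78 ± 0.68 (SE) and Kcnc4, of the same class as Kcnc2, by -0.38 ± 0.15, with adjusted p of 0.609 and 0.234.

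Among 8 genes of the Itm2 and BRICHOS list, which also holds Bri3, none passed (median -0.03, 1 with an unadjusted p under 0.05). The close relatives of Itm2a were bright and differed little, Itm2c by -0.41 ± 0.17 (SE; adjusted p = 0.263) and Itm2b by -0.21 ± 0.10 (adjusted p = 0.33). Of 15 genes of the interleukin-7 and TSLP receptors and their JAK-STAT signalling, none passed (median -0.22, 2 with an unadjusted p under 0.05). Tslp, the ligand of the receptor that Il7r forms with Crlf2, differed by -1.12 ± 0.52 (SE; adjusted p = 0.307). Socs3, a feedback inhibitor of JAK-STAT signalling, differed by -0.84 ± 0.29 (SE; adjusted p = 0.18).

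The secreted families held the 2 relatives that passed. Of 12 ADAMTS and ADAMTS-like genes, 1 fell (median -0.24): Adamts1, a secreted protease that cleaves proteoglycans, averaged 10.35 ± 0.13 in KD cells and 11.23 ± 0.24 in control cells at day 7 (SD, n = 4 each), a difference of -0.88 ± 0.14 (SE; adjusted p = 0.0333). Adamts5 differed by -0.87 ± 0.26 (SE; adjusted p = 0.137). Of 11 CAP genes, 1 fell (median -0.25): Crispld1 averaged 2.95 ± 0.06 in KD cells and 4.09 ± 0.15 in control cells at day 7 (SD, n = 4 each), a difference of -1.14 ± 0.10 (SE; adjusted p = 0.00886), at values close to the floor of the scale. With replicates 1 and 2 averaged neither passed (adjusted p = 0.282 for Adamts1 and 0.189 for Crispld1), and of the 8 fits that left out 1 array Adamts1 passed in 2 and Crispld1 in 7. Their day 0 differences were 0.22 for Adamts1 and -0.31 for Crispld1. Crisp3, with the next-largest change among the CAP relatives, differed by -0.48 ± 0.54 at day 7 (SE; adjusted p = 0.706). None of 9 angiopoietin and angiopoietin-like genes passed (median -0.27, 3 with an unadjusted p under 0.05), with -1.71 ± 0.46 (SE) for Angpt4 (adjusted p = 0.115) and -0.77 ± 0.24 for Angpt2 (adjusted p = 0.155).

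**Figure D4:**
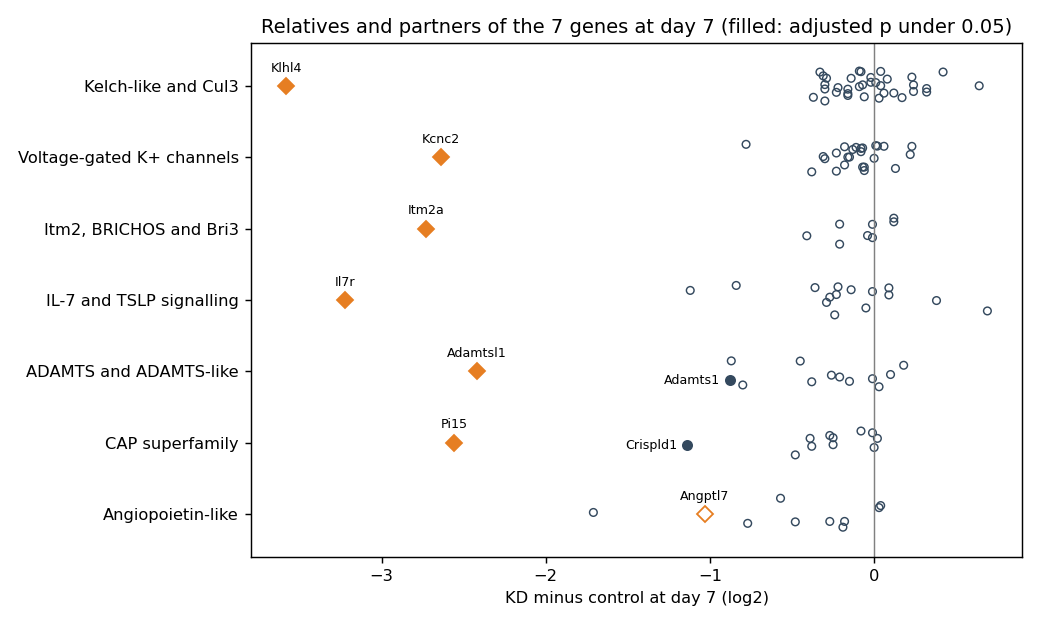
KD minus control difference in log2 expression value at day 7 (brightest probe set of each gene) for the family list of each member, with the member marked apart from its relatives. Of the relatives, Adamts1 and Crispld1 passed an adjusted p under 0.05, and apart from Angptl7 each member lies below all of its relatives. The members were chosen for large decreases, so their places below the relatives carry no further weight.

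Markers of other cell types were examined beside these values. At day 7 the mean log2 value over 7 adipocyte markers ran from 11.80 to 12.66 in KD arrays, against 10.86 to 12.04 in control arrays, and that over 8 preadipocyte and fibroblast markers from 10.77 to 11.48 in KD arrays, against 11.28 to 11.55 in control arrays. All 7 adipocyte markers read higher and all 8 preadipocyte markers lower in KD cells, with 0 of the 15 past an adjusted p of 0.05. At an unadjusted p under 0.05 were 5 adipocyte and 4 preadipocyte markers, beside 3859 of 18193 genes in the limma fit on 1 probe set per gene. The part of these markers in the day 7 differences was not tested. At day 0 the preadipocyte markers ran from 11.67 to 11.90 in KD arrays, against 11.67 to 11.89 in control arrays, so the day 0 groups had like levels of these markers. The adipocyte markers at day 0 ran from 8.51 to 9.54 in KD arrays, against 8.11 to 8.98 in control arrays, and all 7 of their means were higher in KD cells, by 0.04 for Lpl to 1.23 for Adipoq. The Adipoq difference lay within its spread, at 5.69 ± 2.94 in KD cells and 4.46 ± 1.29 in control cells (SD, n = 3 each). Cebpa, a transcription factor of fat cells, averaged 8.45 ± 0.11 in KD cells and 7.98 ± 0.06 in control cells at day 0 (SD, n = 3 each). The part of these markers in the day 0 differences was not tested.

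Il7r and Kcnc2 are known from lymphocytes and neurons, whose markers mostly read near the floor of the scale. The mean over 7 lymphocyte markers ran at day 7 from 3.29 to 3.78 in KD arrays, against 3.47 to 3.65 in control arrays, and at day 0 from 3.38 to 3.59 in KD arrays, against 3.50 to 3.67 in control arrays. The mean over 8 neuron markers ran at day 7 from 3.97 to 4.20 in KD arrays, against 3.77 to 3.99 in control arrays, and at day 0 from 3.44 to 3.55 in KD arrays, against 3.48 to 3.66 in control arrays. Snap25, the neuron marker with the largest difference, averaged 8.93 in KD cells and 7.35 in control cells at day 7 (difference 1.58 ± 0.51, SE; adjusted p = 0.16). The mean over 14 markers of cartilage, bone, tendon and muscle lineages ran at day 7 from 4.77 to 4.84 in KD arrays, against 4.77 to 4.87 in control arrays. The 5 endothelial markers ran from 2.96 to 3.15 in KD arrays, against 2.97 to 3.30 in control arrays, and the 5 macrophage markers from 5.63 to 6.63 in KD arrays, against 5.98 to 6.38 in control arrays. No marker of any of these lists passed the test at day 7.

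The genes whose profiles over the 14 arrays were most like each member were found by the mean absolute difference of log2 values, after each gene was centred on its own mean. This is a description, since all genes share the same arrays and part of each profile is the day 0 contrast that chose the members. Pi15 had the closest neighbours, Kcnj15, a potassium channel gene, at 0.32 and Rspo3, a secreted enhancer of Wnt signalling, at 0.39. Kcnj15 differed by -2.51 at day 0 and by -2.63 at day 7, KD minus control, and Rspo3 by -3.00 and -2.18. Klhl4 lay nearest Il7r of all genes, at 0.48, and its nearest genes outside the 7 were Meox2, a homeobox transcription factor gene, at 0.62 and 3110039M20Rik at 0.65. Meox2 differed by -4.59 at day 0, the largest decrease of all genes that day, and by -3.27 at day 7.

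Il7r had Slc22a22 at 0.55 and Scn7a at 0.62 as its nearest genes outside the 7, and Itm2a had Mmp16, a membrane-bound matrix metalloprotease, at 0.59 and 3110039M20Rik at 0.66. Adamtsl1 had Abca8a at 0.62 and 3110039M20Rik at 0.68. Kcnc2 lay nearest Pi15, at 0.68, and outside the 7 its nearest genes, Folh1 and Abca8a, were both at 0.80, which was the loosest match. Angptl7 had Cd300lb at 0.62 and Crabp1, a retinoic acid binding protein, at 0.65. These last 2 shared its pattern of a day 0 difference that was smaller at day 7. Cd300lb differed by -2.55 at day 0 and -1.10 at day 7, and Crabp1 by -3.04 at day 0 and 0.09 at day 7.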

How the data were processed

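Expression was measured on 14 single-colour arrays, 1 per sample, grouped by the knockdown, day and replicate number in the labels. The authors deposited 1 log2 value per probe set and array, made with RMA and the affy package per the submitters' processing notes (versions not given in the sources used here). That the base is 2 was inferred from the values, which run from 1.13 to 14.37, with array medians of 5.44 to 5.57. RMA understates changes of dim probe sets, the files give no detection calls, and precision is set by how many arrays there are. Of 45101 probe sets, 64 controls were left out. The platform annotation named a single gene for 34945 of the rest and more than 1 for 932, and 9160 are unnamed here. A gene with several probe sets is given by its brightest, averaged over all 14 arrays, unless stated.

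The 7 genes, and the lists of relatives and markers, were chosen with earlier results of these data known. Day 7 was tested by lmFit and eBayes of limma 3.58.1 (R 4.3.3; 8.57 moderated residual degrees of freedom) on the 8 day 7 arrays and all 45037 probe sets, and every adjusted p in the text is from such a fit, Benjamini-Hochberg adjusted over all probe sets tested. The script was tested on simulated data. Named genes are the 7 members, Trp53inp2, the relatives called at day 7 or, with fewer than 2 called, the 2 with the largest change in each list, and the 2 nearest profiles of each member. Genes ranked between or next after the members at day 0 are named too, as are the markers Cebpa, Lpl, Adipoq and Snap25. Alternatives were all 14 arrays in 1 model, the replicate number as a block, replicates 1 and 2 averaged, 2 other scalings, a filter on dim probe sets, 1 probe set per gene, a trend and robust fit, the beta-actin 3' minus 5' difference as a covariate and each array left out. Same-numbered KD and control arrays deviated together, which is where the pairing comes from (r over probe sets brighter than the median 0.217, 0.216 and 0.31 at day 0 and 0.443, 0.551, 0.682 and 0.237 at day 7), though KD replicate 1 at day 7 correlated more with control replicate 2, at 0.526. Promoter windows are from RefSeq, build GRCm38.p6. No sequence of the siRNA was used here.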

Additional observations from a re-analysis of the deposited data

Results flagged for a closer look

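Of the 26 groups of 4 arrays behind the member probe sets at day 7, 4 held 1 array far from the other 3, where chance flags about 1 in 20 groups. Pi15, in its brightest probe set, read 7.58 in KD replicate 3, against 6.05 to 6.23 in the other KD arrays. Kcnc2 read 5.07 in KD replicate 2, against 5.25 to 5.28 in the others, so this flag reflects how tight those others were. The second Itm2a probe set read 4.59 in control replicate 4, against 3.51 to 3.64 in the other control arrays. A dim Adamtsl1 probe set read 4.04 in KD replicate 1, against 4.25 in each of the others.

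The same dim Adamtsl1 probe set differed in direction between the days: every KD array lay below the control mean at day 0 and above it at day 7. The day 7 difference minus the day 0 difference was 0.51 on the log2 scale, and this was not tested.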

How the results depend on the processing

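The brightest probe sets of the 7 genes kept their direction under every alternative in which they were tested. Marker lists, nearest profiles and relatives other than Adamts1 and Crispld1 were not run under the alternatives. The day 7 fit called 413 probe sets and 7 member probe sets. All 14 arrays in 1 model called 1564, the trend and robust fit 734, the filter on the dimmest 40% 923, the beta-actin covariate 4170 and, chosen after seeing the data, leaving out the replicate 3 arrays of both groups 1955. Leaving out 1 array called 8 to 2649 probe sets and 1 to 7 member probe sets. Averaging replicates 1 and 2 called 0 probe sets and 0 member probe sets by limma (8 member probe sets had an unadjusted p under 0.05), with Klhl4 at -3.37, Kcnc2 at -2.38, Itm2a at -2.96, Il7r at -2.99, Adamtsl1 at -2.25 and Pi15 at -2.47. The filter left 5 member probe sets, of which 4 were called. It removed the brightest probe sets of Itm2a, Il7r and Adamtsl1, which were therefore not tested under it. The replicate block called 2197 probe sets and 7 member probe sets (adjusted p between 0.0192 and 0.0283 for the 6 genes), and changed no call of a member gene.

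Fits without 1 array gave -3.82 to -3.29 for Klhl4, -2.91 to -2.33 for Kcnc2, -2.97 to -2.45 for Itm2a, -3.38 to -3.04 for Il7r, -2.76 to -2.25 for Adamtsl1, -2.92 to -2.41 for Pi15 and -1.44 to -0.47 for Angptl7. With the beta-actin covariate, 7 member probe sets were called and Angptl7 was at -0.78 (adjusted p = 0.459).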
